A study of Mus musculus with 8 samples.

Results

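The nuclear-encoded subunit genes of complex I were examined in hearts of C57BL/6 mice, a standard inbred laboratory strain, and compared between the sexes. The genes were taken by symbol: every row of the count table whose mouse symbol begins with Nduf followed by a, b, c, s or v and a number, together with Ndufab1. The Ndufaf genes, which encode assembly factors, were left out by this rule. It found 41 of the 49315 rows, of which 39 had enough counts to be tested, beside 16180 genes tested in all. Of the 41, 36 encode subunits, Ndufa4 and Ndufa4l2 carry the name but belong with complex IV, and Ndufs6b, Ndufb4c and Ndufa11b are copies whose annotated exons cover a single uninterrupted span. The subunit gene Ndufb1-ps was not analysed here. Gene expression was read by RNA sequencing of 8 libraries, 4 of male and 4 of female hearts, all from mice aged 8 weeks, and the labels name no treatment. The series was made to compare the transcriptome of the adult heart between the sexes. The labels give no genotype beyond the strain, do not say which part of the heart was taken, and leave it unstated whether every library has its own animal. The p-values therefore measure the spread between these libraries, which may be technical.

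Complex I, NADH:ubiquinone oxidoreductase, is the entry point of the mitochondrial respiratory chain. It takes electrons from NADH, passes them along a row of iron-sulfur clusters to ubiquinone, and pumps protons across the inner membrane. The complex is L-shaped, with a matrix arm that holds the electron path and a membrane arm that holds the proton pumps, and the heart, which works without pause on oxidative metabolism, is rich in it. Core subunits carry out the chemistry, accessory subunits surround them and are needed for assembly and stability, and the core of the membrane arm is encoded by mitochondrial DNA, so that the complex draws on both genomes.

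Total counts were 39612848 to 47097765 in the male libraries and 32746054 to 35467832 in the female ones, so depth and sex moved together (two-sided exact permutation, p = 0.029, which is the lowest value possible with 4 libraries a sex). Mitochondrially encoded genes took 12.2% ± 0.20 of counts in males and 10.7% ± 0.62 in females (SD, n = 4 each; two-sided exact permutation, p = 0.029). Markers of cardiomyocytes were abundant in every library, with summed levels of 97318 to 106454 CPM in males and 103333 to 104778 CPM in females (CPM is a gene's count relative to its library size after TMM scaling), and 0 of 9 were called by edgeR. Male replicate 4 stood apart: its 4 atrial markers summed to 438 CPM, against 2171 to 2578 CPM in the other males and 2389 to 2636 CPM in the females. Male replicate 1 stood apart in the sum of the leukocyte markers, at 433 CPM. The sums were 198 to 228 CPM in the other males and 167 to 241 CPM in the females. Most of the sum in male 1 was Lyz2, at 339 CPM, and Adgre1, at 62.8 CPM. Both genes, Ptprc and Cd68 were highest in male 1, while the lymphocyte markers Cd3e and Cd79a were not. Of the white adipocyte markers 7 of 8 were called lower in males by edgeR. All 8 had a log2 fold change below 0, with a median of -2.34. Adiponectin (Adipoq), for example, had 2.87 ± 1.26 CPM in males and 15.3 ± 5.41 CPM in females (SD, n = 4 each). The sums of the list, 484 to 557 CPM in males and 575 to 686 CPM in females, were mostly Fabp4, the marker that was not called (494 ± 21.6 CPM in males and 527 ± 24.8 CPM in females). Called lower in males were also 2 of 4 brown adipocyte markers, and all 4 were below 0 (sums of 29.8 to 40.5 CPM in males and 43.9 to 133 CPM in females). Fibroblast markers were called lower in 2 of 7 genes, with sums of 1038 to 1183 CPM in males and 1248 to 1305 CPM in females. All 7 were below 0, and 5 had an unadjusted p below 0.05 by edgeR. Of the endothelial markers 1 of 5 was called higher in males (sums of 664 to 727 CPM in males and 639 to 742 CPM in females). Of these 5, 3 were above 0 and 2 below, among them Kdr, at -0.26 with no overlap between the sexes. Of the smooth muscle markers 1 of 4 was called lower and all 4 were below 0 (162 to 202 CPM in males and 216 to 257 CPM in females). None of the 5 erythroid and 6 leukocyte markers was called, and the erythroid sums were 2518 to 7630 CPM in males and 556 to 8805 CPM in females. No marker of these lists was at 0 over the 8 libraries. The part of these differences, of depth and of the mitochondrial share in the results on complex I was not tested. In bulk tissue, fewer cells of a type and less RNA per cell cannot be told apart.

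The promoter sequences of the genes, which lie on 15 chromosomes, are shown first. Whether their letters bear on the levels described further on was not tested. RefSeq promoter windows on GRCm38.p6, from 250 bases before to 50 after a transcription start, were held for 32 of the 36 subunit genes (34 windows). The 34 windows had a median of 59.2% G or C and 20 CG dinucleotides, against 52.7% and 7 over all 32851 windows. The letters GCGCA, any base, then GCGC, a form of the site known for NRF1, a transcription factor of respiratory genes, were present on either strand in 8 windows of 7 genes (23.5% of windows), against 4.6% of all windows. The genes were Ndufa11, Ndufa5, Ndufa6, Ndufa8, Ndufb4, Ndufs5 and Ndufs6, and the copy in Ndufa5 lies in both of its overlapping windows. The letters AAGATGGCG, a form of the YY1 site, were present in 5 windows (14.7%), those of Ndufa9, Ndufc1, Ndufs4, Ndufs6 and Ndufs7, against 1.4% of all windows. In all 5 the match was on the strand of the gene and began 23 to 36 bases after the start. The letters contain ATG, and whether they lie at the start of the coding sequence was not examined. The shares were not adjusted for the higher CG content of the subunit windows. Other letters searched on both strands were closer to their general share. CCGGAAGT, the ETS and GABP form, was in 2.94% of the subunit windows and 3.89% of all windows, and TNAAGGTCA, the ERR form, in 2.94% and 1.28%. CCAAT was in 29.4% and 37.4%, and TATAAA in 14.7% and 13.6%. No matches of different motifs overlapped in these windows. A match is a description of letters and not of binding. The windows of Ndufa9 and Ndufs6, which hold the YY1 letters, and of Ndufb4, with the most NRF1 matches, are shown with each match of the 6 motifs in capitals.
Ndufa9 (chr6:126849095-126849394, minus strand, YY1 letters): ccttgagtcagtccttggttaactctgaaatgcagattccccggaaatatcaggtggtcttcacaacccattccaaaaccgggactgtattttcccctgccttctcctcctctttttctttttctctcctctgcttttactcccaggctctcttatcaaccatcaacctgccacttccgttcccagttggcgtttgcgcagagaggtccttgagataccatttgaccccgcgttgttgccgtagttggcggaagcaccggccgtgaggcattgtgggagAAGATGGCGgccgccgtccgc
Ndufs6 (chr13:73328433-73328732, minus strand, CCAAT reversed, NRF1, then YY1 letters): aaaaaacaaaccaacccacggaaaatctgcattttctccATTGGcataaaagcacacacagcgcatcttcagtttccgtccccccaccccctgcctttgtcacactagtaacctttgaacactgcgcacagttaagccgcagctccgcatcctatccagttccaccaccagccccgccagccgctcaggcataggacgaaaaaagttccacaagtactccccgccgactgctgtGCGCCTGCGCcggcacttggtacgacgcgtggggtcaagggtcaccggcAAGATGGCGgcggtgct
Ndufb4 (chr16:37654319-37654618, minus strand, NRF1, CCAAT reversed, NRF1, ERR and NRF1 letters): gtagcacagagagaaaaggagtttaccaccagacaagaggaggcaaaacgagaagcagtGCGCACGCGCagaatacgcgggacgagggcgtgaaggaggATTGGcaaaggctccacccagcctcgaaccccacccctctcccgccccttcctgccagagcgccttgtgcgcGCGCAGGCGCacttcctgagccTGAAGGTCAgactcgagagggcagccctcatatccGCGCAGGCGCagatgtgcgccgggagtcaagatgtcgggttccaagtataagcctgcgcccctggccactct

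Between the sexes the nuclear-encoded complex I genes showed a small difference in the same direction, with no gene past the threshold. None of the 39 was called at an adjusted p below 0.05 by edgeR's quasi-likelihood test with Benjamini-Hochberg adjustment over all genes, where 3.79% of all genes were called (2.03% higher and 1.76% lower in males). The log2 fold change, male minus female, was above 0 for 39 of 39, with a median of 0.09, that is 6.23% more, an interquartile range of 0.06 to 0.10, against a median of -0.00074 over all genes tested. Of all genes 49.7% had a value above 0. An unadjusted p below 0.05 was reached by 15 of the 39, all with males higher, beside 10.1% of all genes in that direction. In 10 of the 39 all 4 male values lay above all 4 female values, beside 6.39% of all genes, and in 0 they lay below, beside 5.66%. Among these 10 were Ndufa1, Ndufa3, Ndufa4, Ndufa9, Ndufb5, Ndufb6, Ndufb11, Ndufc1 and Ndufs6, and the sexes overlapped in the other 29. The 39 include Ndufa4, Ndufa4l2 and the copy Ndufs6b. Of the 36 subunit genes alone, 0 were called by edgeR, 36 were above 0 and the median was 0.09. An unadjusted p below 0.05 was reached by 14 of them, and in 9 all 4 male values lay above all 4 female values. By the DESeq2 Wald test 4 genes were called, among them Ndufa1 (adjusted p = 0.0494), Ndufa3 (0.0175) and Ndufa9 (0.00497), where that test called 3.47% of all genes higher in males. By limma-voom 1 was called, Ndufa9 (adjusted p = 0.0459), beside 2.08% of all genes.

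The size of the difference was bounded closely. The median standard error (SE) of the 39 log2 fold changes was 0.041, against 0.077 over all genes tested, and 38 of the 39 had a 95% interval inside a 1.2-fold change in either direction. For those 38 the estimates ran from 1.81% more in males for Ndufab1 to 9.87% more for Ndufa9. The exception was Ndufs6b, with 78 counts over the male and 50 over the female libraries. The direction of the smallest values rests on the scaling of the libraries. With library totals alone and no scaling factor, a setting chosen after the data were seen, 31 of the 39 were above 0 with a median of 0.033, while the median of all genes was -0.056 and 31.8% of all genes were above 0. A scaling factor moves the log2 fold changes of all genes by nearly the same amount. The gap between the 39 and all genes, 0.09 under either scaling, was therefore fixed in advance and does not test the scaling. Under that setting all genes called were 189 higher and 582 lower in males, against 329 higher and 284 lower with TMM.

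**Figure D1:**
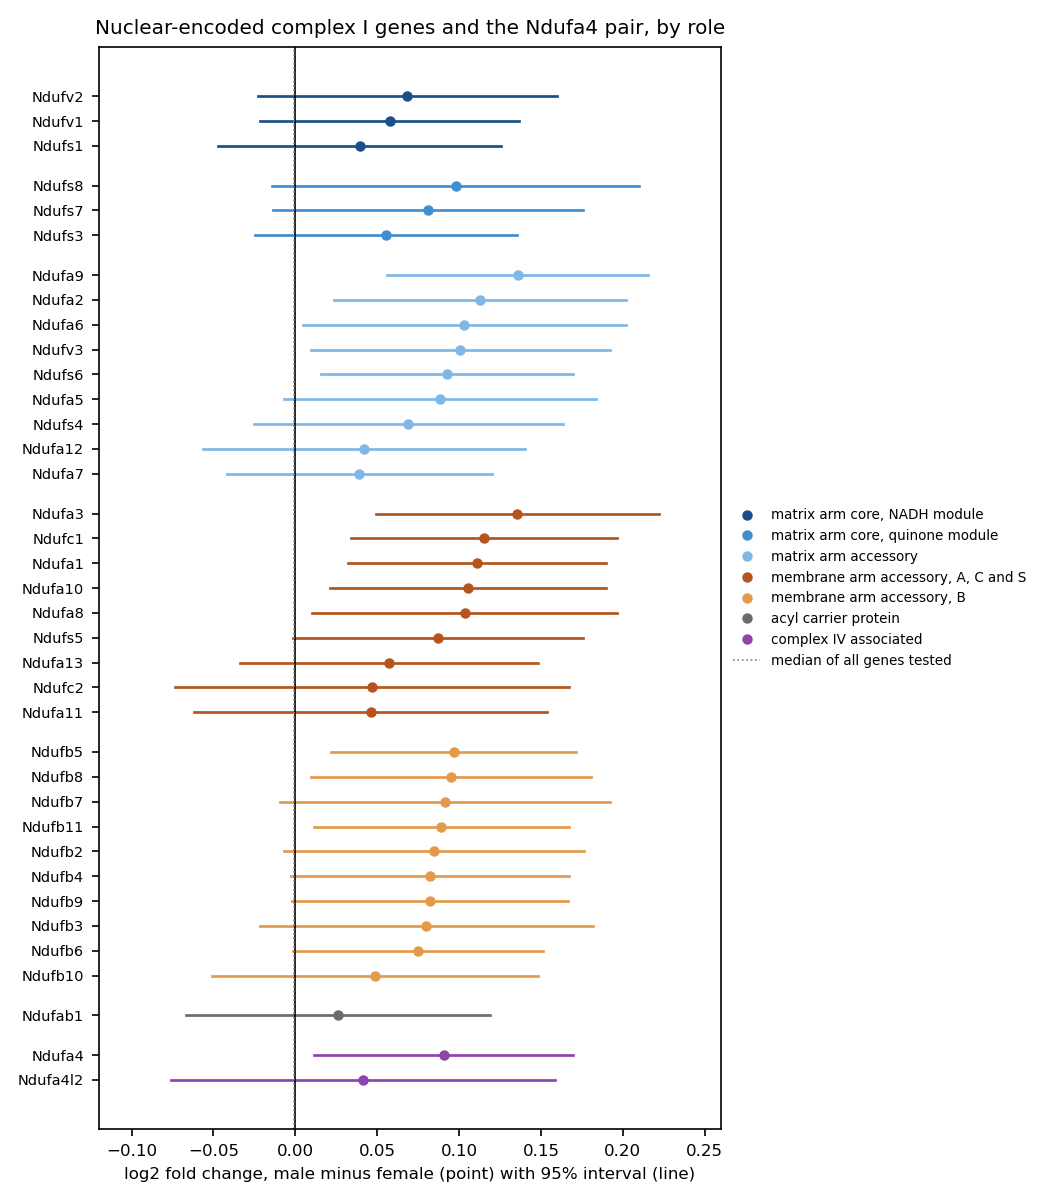
Log2 fold change, male minus female, of 35 subunit genes, Ndufa4 and Ndufa4l2, as points with 95% intervals from edgeR, grouped by role; the copy Ndufs6b is not drawn. With TMM scaling the 37 points lie between 0.03 and 0.14 and many intervals reach below 0; with library totals alone 8 of the points fall below 0.

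The matrix arm core oxidises NADH and hands electrons to ubiquinone, and its 7 genes had a median log2 fold change of 0.07, with 0 called and 1 at an unadjusted p below 0.05. In the NADH module, Ndufv1, which binds NADH and the flavin, had 933, 883, 935 and 948 CPM in males 1 to 4, against 881, 883, 913 and 876 CPM in females 1 to 4. The sexes overlapped through male 2 and female 3, and the log2 fold change was 0.06 (SE 0.036; edgeR adjusted p = 0.42). Ndufs1, the largest subunit, which carries several iron-sulfur clusters, had 750, 723, 746 and 790 CPM in males, against 750, 747, 702 and 730 CPM in females. Male 4 was the highest library for this gene and female 3 the lowest, and the other 6 lay between 723 and 750 CPM. The log2 fold change of Ndufs1 was 0.04 (SE 0.0395, edgeR adjusted p = 0.64). Ndufv2, which holds an iron-sulfur cluster of its own, had 507 ± 4.87 CPM in males and 484 ± 25.5 CPM in females (SD, n = 4 each), with a log2 fold change of 0.07.

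In the quinone module, Ndufs7, which holds the last iron-sulfur cluster before ubiquinone, had 526 ± 21.2 CPM in males and 498 ± 20.7 CPM in females (SD, n = 4 each). Ndufs8, which carries iron-sulfur clusters of the electron path, had 330 ± 16.8 CPM in males and 308 ± 18.5 CPM in females. Ndufs3 had 334 ± 1.86 CPM in males and 321 ± 12.2 CPM in females, and its 4 male values spanned the narrowest range of these 3 genes. The sexes overlapped for Ndufs3, Ndufs7 and Ndufs8.

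The 9 accessory genes of the matrix arm had a median log2 fold change of 0.09, with 0 called and 5 at an unadjusted p below 0.05. Ndufa9, an accessory subunit at the junction of the arms that binds a nicotinamide nucleotide, had the smallest p of all 39 genes. It had 566, 542, 574 and 579 CPM in males, against 531, 504, 514 and 510 CPM in females. The male and female values stood apart, with female 1 the nearest to the males, and the log2 fold change was 0.14 (SE 0.036; edgeR adjusted p = 0.067). Over the 19 other settings tried its log2 fold change ran from 0.08 to 0.16, and its adjusted p from 0.0050 to 0.17. Ndufa9 lies at chr6:126821721-126849136 on the minus strand (ENSMUSG00000000399). Its promoter window is the one printed above, with the YY1 letters after the transcription start.

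Ndufs6, a small zinc-binding subunit whose window is also printed above, had 381, 390, 397 and 385 CPM in males, against 376, 353, 360 and 369 CPM in females. Female 1 lay just under male 1 with no overlap, and the log2 fold change was 0.09 (SE 0.035; edgeR adjusted p = 0.17). Ndufa2, a subunit with a thioredoxin-like fold, had 236 ± 8.45 CPM in males and 218 ± 8.41 CPM in females (SD, n = 4 each), and male 4 fell within the female range. Ndufa6, which binds the acyl carrier protein on the matrix arm, had 283 ± 11 CPM in males and 264 ± 13.3 CPM in females. Ndufs4, whose loss causes a Leigh-like encephalopathy in mice, had 167 ± 1.13 CPM in males and 159 ± 9.53 CPM in females, with a log2 fold change of 0.07. The smallest differences in the group were those of Ndufa12, with 314 ± 13.6 CPM in males and 305 ± 14 CPM in females, and Ndufa7, with 192 ± 4.90 CPM in males and 186 ± 6.25 CPM in females. Ndufa5 and Ndufv3 had log2 fold changes of 0.09 and 0.10.

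The 9 accessory genes of the membrane arm with A, C and S names had the highest median of the groups, 0.10, with 0 called and 5 at an unadjusted p below 0.05. Ndufa3, a short single-pass membrane subunit, had 423, 417, 443 and 416 CPM in males, against 406, 372, 382 and 387 CPM in females. Male 3 was the highest, the sexes did not overlap, and the log2 fold change was 0.14 (SE 0.039; edgeR adjusted p = 0.085). Ndufc1, another single-pass subunit, had 190, 188, 193 and 182 CPM in males, against 180, 171, 167 and 178 CPM in females. The sexes again did not overlap, male 4 and female 1 were the nearest to each other, and the log2 fold change was 0.12 (SE 0.037; edgeR adjusted p = 0.12). Ndufa3 lies at chr7:3617373-3620327 on the plus strand (ENSMUSG00000035674) and Ndufc1 at chr3:51404677-51408988 on the minus strand (ENSMUSG00000037152).

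Both X-linked subunits belong to the membrane arm, and males carry a single copy of each while females carry a second that is subject to X inactivation in most X-linked genes. Ndufa1, a single-pass subunit needed for assembly in mammalian cells (chrX:37187588-37191163, minus strand; ENSMUSG00000016427), had 227, 228, 224 and 216 CPM in males, against 215, 204, 201 and 210 CPM in females. The sexes did not overlap, male 4 lay just above female 1, and the log2 fold change was 0.11 (SE 0.036; edgeR adjusted p = 0.12). Ndufb11, which is needed for assembly of the membrane arm in human cells (chrX:20615326-20617619, minus strand; ENSMUSG00000031059), had 465, 464, 473 and 457 CPM in males, against 454, 421, 434 and 438 CPM in females. The values did not overlap, again with male 4 and female 1 side by side, and the log2 fold change was 0.09 (SE 0.036; edgeR adjusted p = 0.20). Both fold changes lay within the range of the autosomal members. Rbm10 on the opposite strand overlaps 12.9% of the exon length of Ndufb11, where reads of both cannot be told apart if counting ignored strand, which is not stated, and Rbm10 had 8.19% as many counts.

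Of the other membrane arm genes with A and S names, Ndufa10, a subunit related to nucleoside kinases, had 635 ± 23.7 CPM in males and 591 ± 14.1 CPM in females (SD, n = 4 each; log2 fold change 0.11). Ndufa8 and Ndufs5, small subunits of the intermembrane space face, had 388 ± 16.4 and 208 ± 5.02 CPM in males, against 362 ± 13.5 and 196 ± 9.11 CPM in females. For these 3 genes the sexes overlapped. Ndufa13, also known as GRIM-19, Ndufa11 and Ndufc2 had log2 fold changes of 0.06, 0.05 and 0.05, the lowest of the group.

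The 10 accessory genes with B names, which sit along the membrane arm, had a median log2 fold change of 0.08, with 0 called and 3 at an unadjusted p below 0.05. Ndufb5 had 330, 325, 340 and 331 CPM in males, against 312, 309, 301 and 318 CPM in females. The sexes did not overlap, and the log2 fold change was 0.10 (SE 0.034; edgeR adjusted p = 0.15), with 12.3% of its exon length shared with Mrpl47 on the opposite strand. Ndufb6 had 175, 171, 180 and 166 CPM in males, against 166, 166, 163 and 163 CPM in females, and male 4 lay above female 1 by under 1 CPM. Its log2 fold change was 0.07 (SE 0.035; edgeR adjusted p = 0.27), and 39% of its exon length is shared with Smim27 on the opposite strand, which had 3.93% as many counts. Ndufb9, which binds the acyl carrier protein on the membrane arm, had 704, 704, 725 and 708 CPM in males, against 708, 640, 665 and 670 CPM in females. Female 1 lay within the male range while the other 3 females lay below it, and the log2 fold change was 0.08 (SE 0.039; edgeR adjusted p = 0.27). The other B genes, Ndufb2, Ndufb3, Ndufb4, Ndufb7, Ndufb8 and Ndufb10, had log2 fold changes of 0.05 to 0.10, and the sexes overlapped in each.

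Ndufab1, the mitochondrial acyl carrier protein, is found in both arms and also serves mitochondrial fatty acid synthesis. It had 426, 431, 443 and 421 CPM in males, against 449, 402, 408 and 431 CPM in females. The highest and the lowest value were both female, and its log2 fold change of 0.03 (SE 0.042; edgeR adjusted p = 0.79) was the smallest of the 39. By arm, the 16 matrix genes had a median of 0.08 with 6 at an unadjusted p below 0.05, and the 19 membrane genes a median of 0.09 with 8. The difference between the arms was not tested.

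Ndufa4, once assigned to complex I and now placed in cytochrome c oxidase, had 831, 834, 855 and 834 CPM in males, against 806, 777, 754 and 812 CPM in females. All males lay above all females, and the log2 fold change was 0.09 (SE 0.036; edgeR adjusted p = 0.20). Ndufa4l2, its paralog that is induced in low oxygen through HIF-1, had 16.9, 16.6, 18.1 and 16.5 CPM in males, against 17.3, 15.9, 17 and 16 CPM in females. These values overlapped throughout, with a log2 fold change of 0.04 (SE 0.054; edgeR adjusted p = 0.73). Per kb of coding length Ndufa4 stood at 3304 CPM and Ndufa4l2 at 64.4 CPM, a ratio of 51.3. Per kb of exon length they stood at 589 and 17.5 CPM, so the ratio depends on the length used. Shmt2, on the opposite strand, shares 3.12% of the exon length of Ndufa4l2 and had 317% as many counts.

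The 3 copies were near the limit of detection. Ndufs6b had 18, 19, 19 and 22 counts in males, against 12, 11, 18 and 9 counts in females, and a log2 fold change of 0.36 (SE 0.24; edgeR adjusted p = 0.45). Ndufs6 itself had 909 times as many counts as this copy, and how reads shared between such copies were counted is not stated, so the value is uncertain. Ndufb4c had 24 counts in all males and 30 in all females, Ndufa11b 14 in males and 15 in females, and both were too low to be tested. Over the 41 genes, 14 shared exon sequence with another gene and 5 of these over at least 10% of their length: Ndufa2, Ndufa13, Ndufb5, Ndufb6 and Ndufb11.

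Levels among the subunits were compared per length, over all 8 libraries. Per kb of coding length the 36 genes ran from 227 CPM for Ndufv3 to 1353 CPM for Ndufa3, a 5.96-fold range, with a median of 679 CPM, and 33 of the 36 lay within 2-fold of that median. The role groups had similar medians of 651 CPM per kb in the NADH module, 632 in the quinone module, 692 in the matrix accessory genes, 727 in the membrane genes with A, C and S names and 715 in those with B names. Besides Ndufv3, the genes more than 2-fold under the median were Ndufb4, with 266 CPM per kb, and Ndufs4, with 310 CPM per kb. Per kb of the deposited exon length, which counts every annotated exon of a gene, the same genes ran from 33.8 CPM for Ndufb2 to 1061 CPM for Ndufb9, a 31.4-fold range. Ndufab1 ranked 36 of the 41 genes by exon length and 11 by coding length, so the order depends on the length used. Ndufv3 ranked 27 by exon length and 37 by coding length, for which its longest coding transcript, of 1404 bases, was taken. The next to Ndufb9 by exon length was Ndufs6, with 598 CPM per kb, and the lowest of the tested genes were Ndufs6b, with 1.18 CPM per kb, and Ndufa4l2, with 17.5 CPM per kb.

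**Figure D2:**
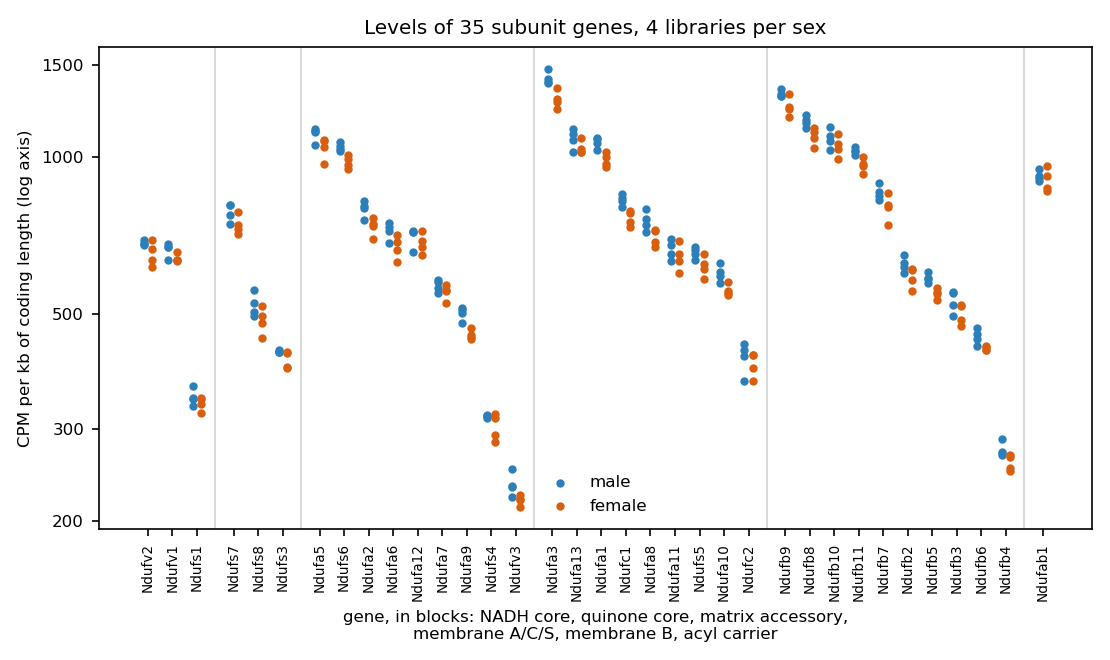
CPM per kb of coding length (log axis) of 35 subunit genes in each library, males left of females within each gene, in blocks by role. Levels run from about 227 for Ndufv3 to about 1353 for Ndufa3 on average, and the gap between genes is far wider than the gap between the sexes.

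In 6 of the 8 libraries at least 70% of the 39 tested genes deviated from their own means in the same direction. The means are over all 8 libraries, so these deviations include the difference between the sexes. The share of all genes that deviated in 1 direction was not computed. Males 1, 2 and 3 lay above the mean for 38, 32 and 39 genes, and females 2, 3 and 4 for 1, 3 and 10. The other two were close to evenly split, with 20 genes above the mean in male 4 and 23 in female 1. The summed level of the 36 subunit genes was 14599, 14387, 14901 and 14362 CPM in males, against 14265, 13350, 13529 and 13894 CPM in females. The sums averaged 14562 ± 249 CPM in males and 13760 ± 406 CPM in females (SD, n = 4 each) and did not overlap, although male 4 and female 1 were close. As a plain share of all counts the sums overlapped, at 1.40% to 1.44% in males and 1.37% to 1.44% in females. Over the 39 tested genes, the median deviation from each gene's mean was 0.04, 0.04, 0.08 and 0.00 (log2) in males 1 to 4, and 0.01, -0.09, -0.06 and -0.02 in females 1 to 4. Male 3 was the highest of the 8 libraries for 24 genes, female 2 the lowest for 24 and female 3 the lowest for 12. Among the females, replicate 1 was the highest for 33 genes, and among the males, replicate 4 was the lowest for 27. Without male 3 the median log2 fold change was 0.07 and 6 genes had an unadjusted p below 0.05, and without female 2 it was 0.06 with 7 genes. Without female 3 it was 0.08 with 8 genes. Without female 1 it was 0.11 with 24 genes. Without male 4, the library low in atrial markers, it was 0.10 with 22 genes, beside 9.76% of all genes in that direction. That share of all genes is not given for the other fits, so their counts have no background beside them. In each of these fits 0 of the 39 were called by edgeR. All genes called numbered 315 without male 3, 354 without female 2, 379 without female 3, 419 without female 1 and 434 without male 4.

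**Figure D3:**
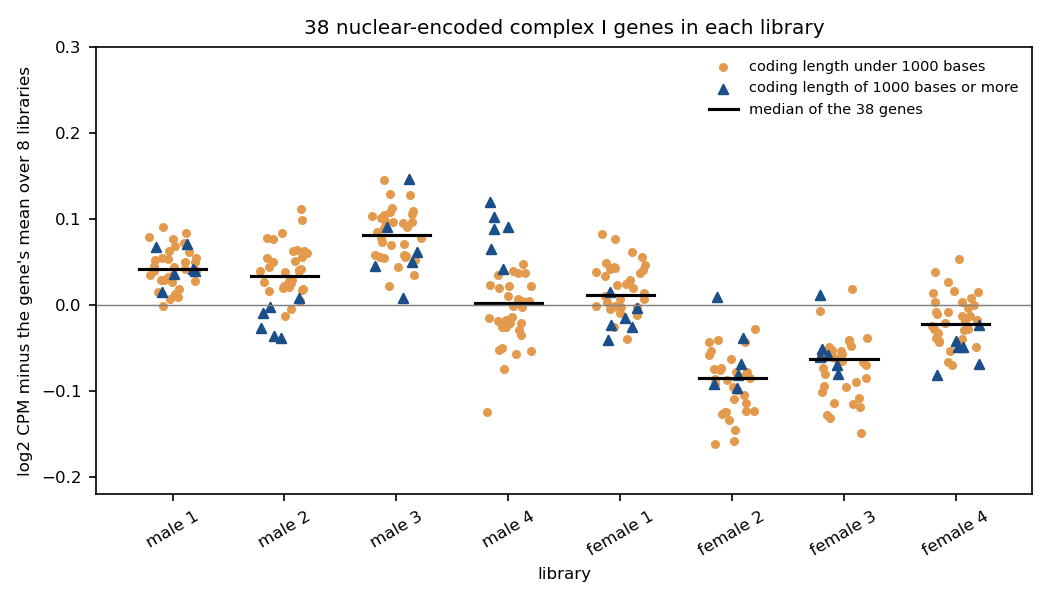
Log2 CPM of 38 genes (36 subunits, Ndufa4 and Ndufa4l2) in each library minus the gene's mean over the 8 libraries, with the median as a bar; triangles mark genes with a coding length of at least 1000 bases. Male 3 stands highest and female 2 lowest, and in male 4 the long genes stand above the short ones.

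Male replicate 4 also split the genes by length, a pattern chosen after the values were seen. Against the other 3 males, 5 of the 6 genes with a coding length of at least 1000 bases were higher in it, with a median of 0.05 (log2), while 0 of the 32 shorter genes were, with a median of -0.06. Ndufs1 and Ndufa10 were the highest, each at 0.09, and Ndufc2, at -0.20, and Ndufa12, at -0.13, the lowest. Over the 38 genes Spearman's correlation of this difference with coding length was 0.50, and over all 14047 tested genes with a coding length it was 0.23. The same correlation for the 38 genes was -0.46 in male 2 against the other males, and between -0.24 and 0.17 in the other 6 libraries, each within its sex. The genes share their libraries, so the correlations describe these libraries. The complex I genes are short, with a median coding length of 440 bases against 1398 over all tested genes. Between the sexes the 6 long genes had a median log2 fold change of 0.10 and the 32 short ones 0.08, where all long genes had -0.01 and all short genes 0.02.

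**Figure D4:**
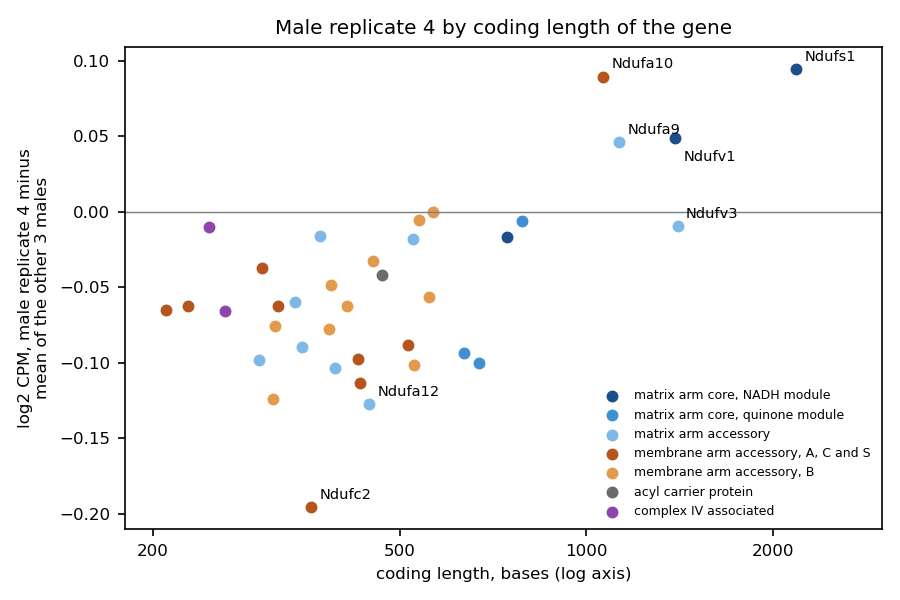
Log2 CPM in male replicate 4 minus the mean of the other 3 males for 37 genes, against coding length in bases (log axis), coloured by role. The 5 genes of at least 1000 bases lie between -0.01 and 0.09, and the 32 short ones at or below 0.

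The 7 subunits encoded by mitochondrial DNA, the proton-pumping core of the membrane arm, had larger fold changes than their nuclear partners, a difference that was not tested. Mitochondrially encoded genes as a whole also took more of the counts in males, 12.2% ± 0.20 against 10.7% ± 0.62 in females (SD, n = 4 each). Whether the difference of the 7 goes beyond that of the whole was not tested. All 7 had log2 fold changes above 0 with a median of 0.26, and 4 were called higher in males by edgeR, where 2.03% of all genes were. mt-Nd4 had 8362, 8418, 8548 and 8505 CPM in males, against 6958, 6958, 6537 and 7068 CPM in females. Its groups lay far apart, at 8458 ± 83.6 CPM in males and 6880 ± 235 CPM in females (SD, n = 4 each), with a log2 fold change of 0.30 (SE 0.033; edgeR adjusted p = 0.00075). mt-Nd4 was called in each of the 18 other settings tried. mt-Nd1 (14384 ± 753 CPM in males and 12127 ± 1036 CPM in females; log2 fold change 0.25, edgeR adjusted p = 0.043) and mt-Nd2 (9521 ± 346 CPM in males and 7949 ± 740 CPM in females; 0.26, edgeR adjusted p = 0.034) were called in 9 and 11 of the 18. For both, the male values lay above all female values. mt-Nd3 was higher as well, at 14.9 ± 0.74 CPM in males and 10.4 ± 2.06 CPM in females (0.53, edgeR adjusted p = 0.029), and was called in 15 of the 18. It and mt-Nd4l, at 3.78 ± 0.65 CPM in males and 3.10 ± 0.57 CPM in females (0.28, edgeR adjusted p = 0.34), were counted far lower than the others and are uncertain, since how reads with several matches were counted is not stated. mt-Nd5 (11053 ± 506 CPM in males and 9759 ± 680 CPM in females; 0.18, edgeR adjusted p = 0.076) and mt-Nd6 (2361 ± 57.8 CPM in males and 1982 ± 251 CPM in females; 0.25, edgeR adjusted p = 0.085) did not pass. Each was called in 3 of the 18 settings, the DESeq2 Wald test (adjusted p = 0.014 and 0.0088), edgeR without a filter on low counts (0.044 and 0.014) and edgeR without female 2 (0.032 for both), and mt-Nd4l in 0. With the first 2 of these settings 6 of the 7 were called. The calls were sensitive to single libraries: 1 of the 7 was called without male 2, male 3 or female 1, 2 without female 3, and 2 with library totals alone. The summed counts of the 7 per count of the 36 nuclear genes were 3.15 ± 0.072 in males, with a range of 3.08 to 3.23, and 2.82 ± 0.23 in females, with a range of 2.59 to 3.09. This ratio, which needs no scaling between libraries, overlapped between the sexes only through female 2, at 3.09.

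Other genes of the pathway were read from lists drawn up from general knowledge, and their medians depend on the scaling as those of complex I do: with library totals alone they were 0.015 for the assembly factors, 0.0041 for complexes II to V and -0.040 for the regulators, beside -0.056 for all genes. Of the 16 complex I assembly factors tested, out of 17 listed, 0 were called by edgeR, 2 had an unadjusted p below 0.05, 14 had values above 0 and the median was 0.07. Over all genes 2.03% were called higher in males, 10.1% had an unadjusted p below 0.05 with males higher, and 49.7% had values above 0. The smallest p belonged to Timmdc1, which helps build the membrane arm, with 45.79, 47.81, 48.05 and 48.07 CPM in males, against 44.72, 41.94, 44.02 and 40.56 CPM in females. The values did not overlap, and the log2 fold change was 0.15 (SE 0.040; edgeR adjusted p = 0.070). By the DESeq2 Wald test 1 assembly factor was called. Of 39 nuclear genes of complexes II to V, 2 were called higher in males, 37 had values above 0, 11 had an unadjusted p below 0.05 and the median was 0.06. The shares of all genes are those just given. In 11 of these 39 all 4 male values lay above all 4 female values, beside 6.39% of all genes. Both called genes are muscle forms of cytochrome c oxidase subunits. Cox6a2, another muscle form on the list, had a log2 fold change of 0.02 (edgeR adjusted p = 0.78). Cox8b had 647 ± 9.21 CPM in males and 582 ± 17.9 CPM in females (0.15, edgeR adjusted p = 0.040). Cox7a1 had 980 ± 36.3 CPM in males and 853 ± 54.6 CPM in females (0.20, edgeR adjusted p = 0.048). The sexes did not overlap for either gene, but 0 genes of this list were called by edgeR with library totals alone, with the replicate number as a block, or in 7 of the 8 fits that left out a library, those other than the fit without female 1, and 6 were called by the DESeq2 Wald test.

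Of 11 regulators of respiratory genes, 8 had values above 0 and the median was 0.01 with TMM. An unadjusted p below 0.05 by edgeR was reached by 2, both lower in males. Of these, 1 was called, where 1.76% of all genes were called lower. The called gene was Ppargc1b, a coactivator of mitochondrial gene expression in the family of PGC-1. Ppargc1b had 28.71, 29.98, 25.64 and 25.99 CPM in males, against 32.97, 40.54, 40.85 and 35.09 CPM in females. The sexes did not overlap, and the log2 fold change was -0.44 (SE 0.076; edgeR adjusted p = 0.011). Its relative Ppargc1a had 94.8 ± 12.9 CPM in males and 85.5 ± 2.18 CPM in females (0.15, edgeR adjusted p = 0.31), with male 4 the highest at 114 CPM. Esrrb, the other regulator under the unadjusted 0.05, had 34.1 ± 1.92 CPM in males and 39.5 ± 2.79 CPM in females (-0.21, edgeR adjusted p = 0.064). The adipocyte and fibroblast markers that were lower in males, given above, moved in the same direction as Ppargc1b, and their part in its difference was not tested.

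**Figure D5:**
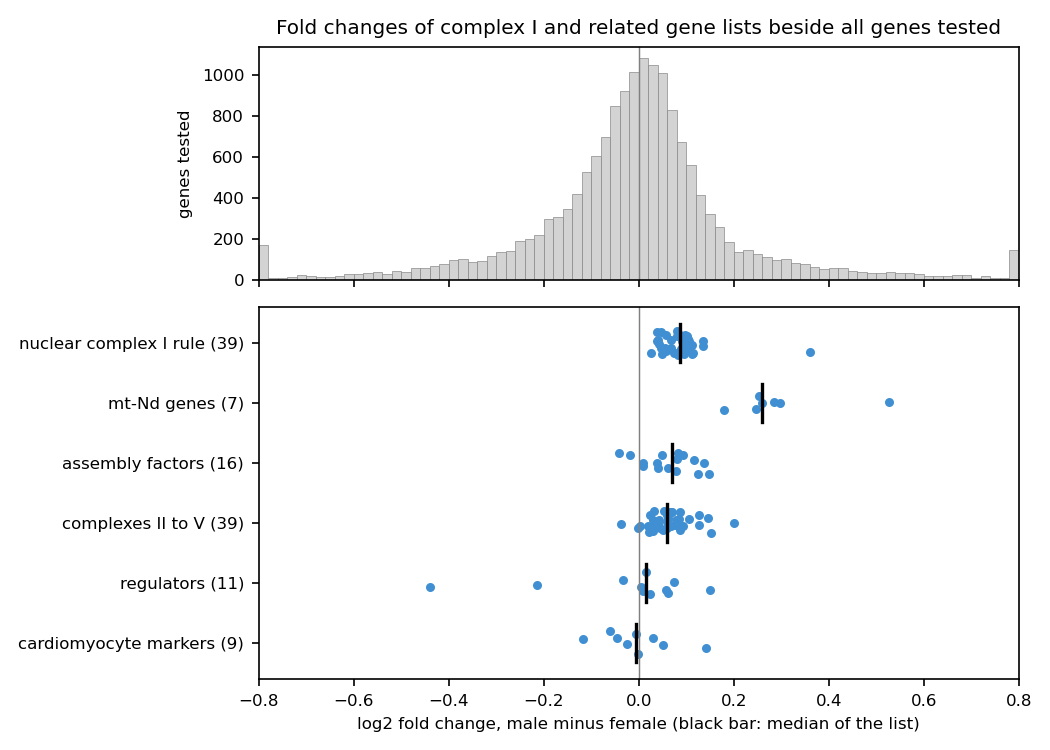
Log2 fold change, male minus female, of the nuclear-encoded complex I genes and related lists (points, with the median as a bar), under a histogram of all 16180 genes tested whose outermost bins collect the 292 genes beyond 0.8 in either direction. Apart from the copy Ndufs6b, at 0.36, the 39 genes of the complex I rule lie in a narrow band around 0.09. The mt-Nd genes lie around 0.26 and the cardiomyocyte markers around -0.01.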

How the data were processed

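Per the labels' protocols, Trizol was used on dissected hearts, and 1 µg of the RNA went into each TruSeq library. The authors deposited raw counts per gene for 49315 Ensembl genes, and the submitters' processing notes name Trimmomatic 0.36, STAR 2.5.2b, featureCounts and Subread 1.5.2 with the build GRCm38. Their order, how strand and reads with several matches were handled, and which annotation was used are not given in the sources used here. The deposited tables of single libraries hold the same counts with exon coordinates and lengths. The authors also deposited a normalized signal, which the values show to be raw counts over a size factor of each library (0.863 to 1.196), for 16160 genes.

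Symbols were matched to 48970 of the gene IDs. Genes passing filterByExpr (minimum count 10, minimum total 15) were scaled by TMM and tested, male minus female, with edgeR 4.0.16 (R 4.3.3) by its quasi-likelihood test, with Benjamini-Hochberg adjustment over 16180 genes and a threshold of 0.05. Each SE divides the size of the log2 fold change by the root of F. Log2 CPM used a prior count of 2, and 1 count was worth 0.0218 to 0.0302 CPM, which limits the copies most. Coding length is that of the longest coding transcript in the GENCODE M21 basic annotation, on GRCm38. The procedure was also run on simulated data, whose outcome is not reported here and is not used as support.

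The members and lists were chosen with earlier results of these data known, so no p is given over them. Named in full were the 5 members with the smallest p, the X-linked members, core subunits such as Ndufs1 and Ndufv1, Ndufa4 and Ndufa4l2, the 2 highest and 2 lowest per kb of exon among those tested, and the mt-Nd genes; from other lists, up to 3 called genes in each direction or the smallest p. Ndufb5, Ndufb6, Ndufs6 and Ndufab1 got library values after their values were seen, as did Ppargc1a. Esrrb was also named after its values were seen. The values of 1 gene are counted in the totals and not reported here. Alternatives were DESeq2 1.42.0 (size factors and Wald test), upper quartile scaling, dropping the filter or asking for 1 CPM in 4 libraries instead, removal of mitochondrial genes, limma 3.58.1 (voom, and log2 of the normalized signal plus 1), the replicate number as a block, thinning, each library left out, and, chosen after the data were seen, library totals alone.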

Additional observations from a re-analysis of the deposited data

Results flagged for a closer look

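Of 92 groups of 4 values examined (39 nuclear-encoded and 7 mitochondrially encoded genes in each sex), 3 held a value whose gap to its nearest neighbour took up more of the group's range than Dixon's critical value for 4 values at 95% allows, and chance alone gives about 1 in 20. Ndufa12 had 293.6 CPM in male replicate 4, against 320.0 to 321.3 CPM in the other males. Ndufa4 had 854.8 CPM in male replicate 3, against 830.7 to 834.4 CPM in the other males. Ndufv1 had 913.4 CPM in female replicate 3, against 876.4 to 882.7 CPM in the other females.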

How the results depend on the processing

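None of the 39 nuclear-encoded complex I genes was called by edgeR in any setting; the DESeq2 Wald test called 4 and limma-voom 1. Their median of 0.09 ran from 0.06 to 0.11 over left-out libraries, from 0.08 to 0.09 over the planned settings, and was 0.033 with library totals alone, where all genes stood at -0.056. Under that setting the signs of Ndufa11 (-0.0087), Ndufa12 (-0.012), Ndufa4l2 (-0.014), Ndufa7 (-0.016), Ndufab1 (-0.029), Ndufb10 (-0.0059), Ndufc2 (-0.0071) and Ndufs1 (-0.016) turned, the medians of the assembly factors and complexes II to V were 0.015 and 0.0041, that of the regulators turned to -0.040, and 2 mt-Nd genes, 0 genes of complexes II to V and 2 regulators were called. The shift of all genes by that scaling is its own construction. Genes of complexes II to V called higher (2) numbered 1 with DESeq2 size factors, upper quartile scaling, the 1 CPM filter or thinning, 6 by the DESeq2 Wald test, and 0 to 2 over left-out libraries. Assembly factors called numbered 1 by the DESeq2 Wald test. Regulators called lower (1) numbered 2 without a filter and by the DESeq2 Wald test, and 1 to 2 over left-out libraries. The mt-Nd genes called (4) numbered 6 by the DESeq2 Wald test and without a filter, 2 by limma on the normalized signal, and 1 to 5 over left-out libraries. All genes called (613) numbered 959 by the DESeq2 Wald test and 315 to 490 over left-out libraries. The causes were not tested. Replicate numbers did not pair the libraries: same-numbered males and females had correlations of -0.047 to 0.054 between their deviations, and 0 of 4 males matched their own number best. With the replicate number as a block, 0 nuclear-encoded complex I genes were called with a median of 0.09 and 9 at an unadjusted p below 0.05, 0 genes of complexes II to V were called, and 427 of all genes. Depth limits the 3 copies; the other 38 tested genes had at least 5188 counts each.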
